A study of Mus musculus with 11 samples.

Results

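Molecular chaperones and their partners were followed in mouse embryonic stem (ES) cells of line R1, in the cells they gave rise to, and in the embryonic fibroblasts that serve as their feeder layer. The members were all probe sets with exactly 1 annotated symbol of the HSP90, HSP70, HSP110, small heat shock protein, HSP60 and HSP10, DNAJ, CCT, Stip1, BAG and HSP70 binding protein families. They numbered 90 probe sets for 61 genes, out of 12422 probe sets and 8571 genes on the array, and 20 of the genes had several probe sets. There were 11 arrays. The feeder layer had 2 (replicates 6 and 10 in the titles) and undifferentiated cells had 3 (replicates 1, 5 and 9). The differentiated cells had 3 at 4+8 days (replicates 1, 2 and 3) and 3 at 4+11 days (replicates 4, 8 and 12). The genotype was that of the R1 line in all ES-derived groups, with no added allele or agent named in the labels. The labels describe the differentiated cells as nestin-positive, nestin being an intermediate filament protein of neural progenitors, and speak of 3 independent experiments. All ES cells were 1 line, grown on fibroblasts, so undifferentiated samples can hold some feeder cells. One feeder array, replicate 10, has the ES line as its source name, and its title was used.

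Chaperones bind proteins that are not yet folded or have lost their fold and, mostly by cycles of ATP binding and hydrolysis, let them fold, be handed on or be degraded. HSP70 receives its clients from DNAJ proteins, which also trigger its ATP hydrolysis, and is reset by nucleotide exchange factors such as the HSP110 and BAG proteins; the adapter Stip1 hands clients on to HSP90. Chaperonins (CCT in the cytosol, HSP60 with HSP10 in mitochondria) enclose the client in a barrel, and a separate set with BiP and GRP94 serves the endoplasmic reticulum (ER). Pluripotent cells are known for high levels of several cytosolic chaperones.

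Values below are probe set intensities in arbitrary units after quantile normalisation, listed in the order of the replicates given above. Differences are on the scale log2(intensity + 8), with the group named first minus the second, and a call is a Benjamini-Hochberg adjusted p below 0.05 in a limma fit over the 8940 probe sets tested. Levels of different probe sets are not comparable with each other. Undifferentiated cells served as the reference for 3 comparisons, which therefore share arrays. The 4+8 day arrays had a scan session and a chip lot of their own, so group and session cannot be told apart in any comparison with them. Replicates were more scattered at 4+8 days, where the median SD of tested probe sets was 0.45 on the log2 scale, than at 4+11 days (0.26), in undifferentiated cells (0.20) and in feeder cells (0.16). The 7 ES cell markers on a list (Pou5f1, Nanog and others) summed to 136 to 153 in feeder cells, 13891 to 15455 in undifferentiated cells, 244 to 475 at 4+8 days and 137 to 187 at 4+11 days. The neural progenitor list of 8 genes had 1 called higher and 1 called lower at 4+8 days and 3 higher and 0 lower at 4+11 days, against undifferentiated cells. Other cell types' markers moved too. Of 12 cardiac and skeletal muscle markers 12 were called higher at 4+8 days and 9 at 4+11 days. Of 6 tested endothelial markers 4 and 3 were called higher at these times, and of 7 tested endoderm markers 3 and 2. The 9 macrophage markers had 0 and 3 called higher, and summed to 189 to 5942 at 4+8 days and 848 to 9944 at 4+11 days, against 210 to 417 in undifferentiated cells. The part of these cells in the members' values was not tested. In RNA from whole cultures, fewer cells of a type and less RNA per cell cannot be told apart.

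Members called lower in differentiated cells outnumbered those called higher. At 4+8 days against undifferentiated cells, 33 of 79 tested member probe sets were called lower and 5 higher, 41 were not called and 11 were not tested. Among all tested probe sets 19.9% were called lower and 17.2% higher in that comparison, so the members' 41.8% and 6.33% lay on either side of the background. The median difference of all 90 members was −0.44, beside 0.070 over all 12422 probe sets. At 4+11 days against undifferentiated cells, 21 were called lower and 4 higher, which is 26.6% and 5.06% of those tested beside a background of 9.44% and 9.22%, with a median of −0.26 beside −0.028. In feeder cells against undifferentiated cells, 23 were called lower and 9 higher, or 29.1% and 11.4% beside 10.3% and 10%, with a median of −0.29 beside −0.016. At 4+11 days against 4+8 days the split was the other way, with 13 called higher and 4 lower, or 16.5% and 5.06% beside 12.2% and 10.8%. By gene, with the brightest probe set standing for each, 24 of 58 tested genes were lower and 4 higher at 4+8 days. At 4+11 days 15 and 2 were, and in feeder cells 15 and 6. A fit with 1 probe set per gene gave member shares of 41.4% lower and 6.9% higher at 4+8 days, beside 20.5% and 18% of all genes tested. It gave 27.6% and 3.45% at 4+11 days, beside 10.6% and 11%. In feeder cells it gave 27.6% and 10.3%, beside 11.4% and 11.5%, so the higher share there was near the background.

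The 8 arrays other than those of 4+8 days were put into 3 runs by their recorded hybridisation times, with a gap in time starting a new run. These inferred runs are called fluidics runs here (washing and staining). Run 3 held 4+11 day replicate 12 alone, so the block fit takes no group difference from that array. The fit with the run as a block used the 8 arrays only, without the more scattered 4+8 day arrays. It gave 24 members lower and 6 higher at 4+11 days against undifferentiated cells, beside a background of 13.5% and 14%. In feeder cells it gave 28 lower and 12 higher, beside 17.7% and 17.4%. The same 8 arrays without a block gave 27 lower and 6 higher at 4+11 days, beside 15.2% and 15.3%. In feeder cells they gave 27 lower and 13 higher, beside 15.5% and 16.3%. All 21 members called lower at 4+11 days, and all 23 in feeder cells, were below undifferentiated cells within run 1 and within run 2. These members were chosen by their calls on the same arrays, so their signs within runs are not separate support. The within-run medians of the members were −0.39 and −0.16 at 4+11 days and −0.31 and −0.27 in feeder cells. Against the fit on all 11 arrays, the block fit gained 7 member calls and lost 2 at 4+11 days. It gained 8 and lost 0 in feeder cells, as given beside the members below. Leaving out the 4+8 day arrays and adding the block both enter these changes, and for single members their parts were not told apart. The counts leaned on single arrays, and those of all probe sets fell as well. Leaving out feeder replicate 6 left 4 members lower and 1 higher in feeder cells (5.06% and 1.27%, beside 3.03% and 2.42% of all tested probe sets), and leaving out feeder replicate 10 left 10 and 1 (12.7% and 1.27%, beside 3.59% and 2.73%). Without undifferentiated replicate 9, 14 were lower there (17.7% beside 5.79%). At 4+11 days the count of lower members was 9 (11.4%) without undifferentiated replicate 9 or without 4+11 day replicate 12, beside 4.7% and 5.79% of all. It was 10 (12.7%) without 4+11 day replicate 4 and 11 (13.9%) without undifferentiated replicate 1, beside 4.52% and 4.92%. With both arrays of the other wash protocol left out (undifferentiated replicate 9 and 4+11 day replicate 12), 1 was lower (1.27% beside 2.26%) and 0 were higher (beside 2.28%) in limma's fit.

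The scale of the arrays bears on every direction given here. As deposited, the 4+8 day arrays were brighter, and the median of all probe sets lay 0.99 above undifferentiated cells, against 0.16 at 4+11 days and 0.21 in feeder cells. On that scale 7 of 81 tested members were called lower and 27 higher at 4+8 days, or 8.64% and 33.3%, beside 4.04% and 59.2% of all tested probe sets. Relative to the median of all probe sets, the CCT, HSP70 and mitochondrial chaperonin medians stayed below under all 3 scalings tried, in each of the 3 comparisons with undifferentiated cells. At 4+8 days the CCT median lay 0.82 below the median of all probe sets after quantile normalisation, 0.92 below it as deposited and 1.14 below it after scaling to a common trimmed mean. The HSP70 and HSP110 median lay 0.83, 1.04 and 1.26 below it in that order of scalings, and the mitochondrial chaperonin median 1.08 below it in the first and 1.49 in the last.

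**Figure D1:**
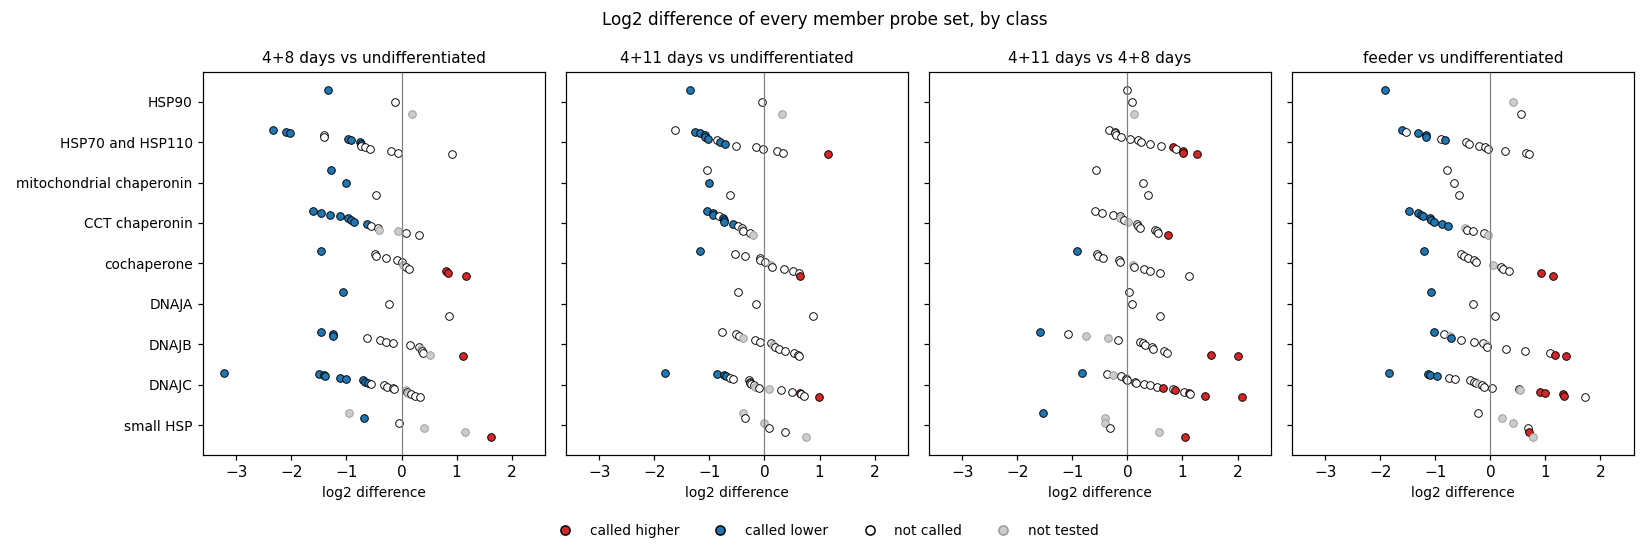
Log2 difference (x axis) of each of the 90 member probe sets by class (y axis) in the 4 comparisons, coloured by the call. At 4+8 days 33 points are called lower and 5 higher, and the lowest point is Dnajc21 at −3.22. Every 4+8 day array of Dnajc21 lay below 33.4, the filter on low values.

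Hsp90aa1 and the adapter Stip1 were lower in feeder and differentiated cells than in undifferentiated cells. Hsp90aa1, the inducible cytosolic HSP90, read 3002 and 2292 in feeder cells, 8634, 9853 and 11596 in undifferentiated cells, 4157, 5272 and 2739.8 at 4+8 days, and 3521, 5272 and 3138 at 4+11 days. Its undifferentiated arrays lay above every other array. The difference from undifferentiated cells was −1.34 ± 0.29 (SE, adjusted p = 0.00569) at 4+8 days, −1.36 ± 0.29 (SE, adjusted p = 0.0107) at 4+11 days and −1.92 ± 0.32 (SE, adjusted p = 0.00375) in feeder cells. Stip1, which carries clients between HSP70 and HSP90, read 317 and 315 in feeder cells, 778, 662 and 782 in undifferentiated cells, 230.3, 254 and 305 at 4+8 days, and 273, 463 and 268 at 4+11 days. Here too no array of another group reached the undifferentiated ones, and the differences were −1.47 ± 0.23 (SE, adjusted p = 0.00118), −1.17 ± 0.23 (SE, adjusted p = 0.00827) and −1.20 ± 0.26 (SE, adjusted p = 0.0111) in the same order. Stip1 lost its feeder call in 2 of 5 fits with 1 array left out (adjusted p up to 0.0822, without feeder replicate 6). Hsp90b1, the HSP90 of the ER known as GRP94, is given with the ER chaperones below. No probe set used here had Hsp90ab1, the other cytosolic HSP90, as its only symbol.

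Proteins that work with HSP90 and HSP70 but fall outside the member families gave calls in the lower direction. Of 18 measured, all of them tested, 10 were called lower at 4+8 days, 6 at 4+11 days and 6 in feeder cells. In none of the 3 comparisons was any called higher. Over all tested probe sets 19.9%, 9.44% and 10.3% were called lower and 17.2%, 9.22% and 10% higher. The medians of the 18 genes were −0.74, −0.28 and −0.45, beside the medians of 0.070, −0.028 and −0.016 over all probe sets. Cacybp, the calcyclin binding protein, differed by −2.56 ± 0.30 (adjusted p = 2.63e-04) at 4+8 days and the cochaperone phosphatase Ppp5c by −1.58 ± 0.20 (adjusted p = 3.47e-04). Fkbp4, the immunophilin of steroid receptor complexes, differed by −1.45 ± 0.27 (adjusted p = 0.00642) at 4+11 days and by −1.98 ± 0.30 (adjusted p = 0.0026) in feeder cells. The immunophilin Ppid and the HSP90 cochaperone Sugt1 were called lower in all 3 comparisons, with Ppid at −1.02, −1.03 and −1.49 and Sugt1 at −1.46, −0.88 and −1.02. Cdc37, which brings kinases to HSP90, and Stub1, a ubiquitin ligase of chaperone clients, were not called, at 0.098 and 0.21 at 4+8 days. Between 4+11 and 4+8 days 5 of the 18 were called higher, beside 12.2% of all tested probe sets, with Cacybp at 1.37 ± 0.30 (adjusted p = 0.0117).

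**Figure D2:**
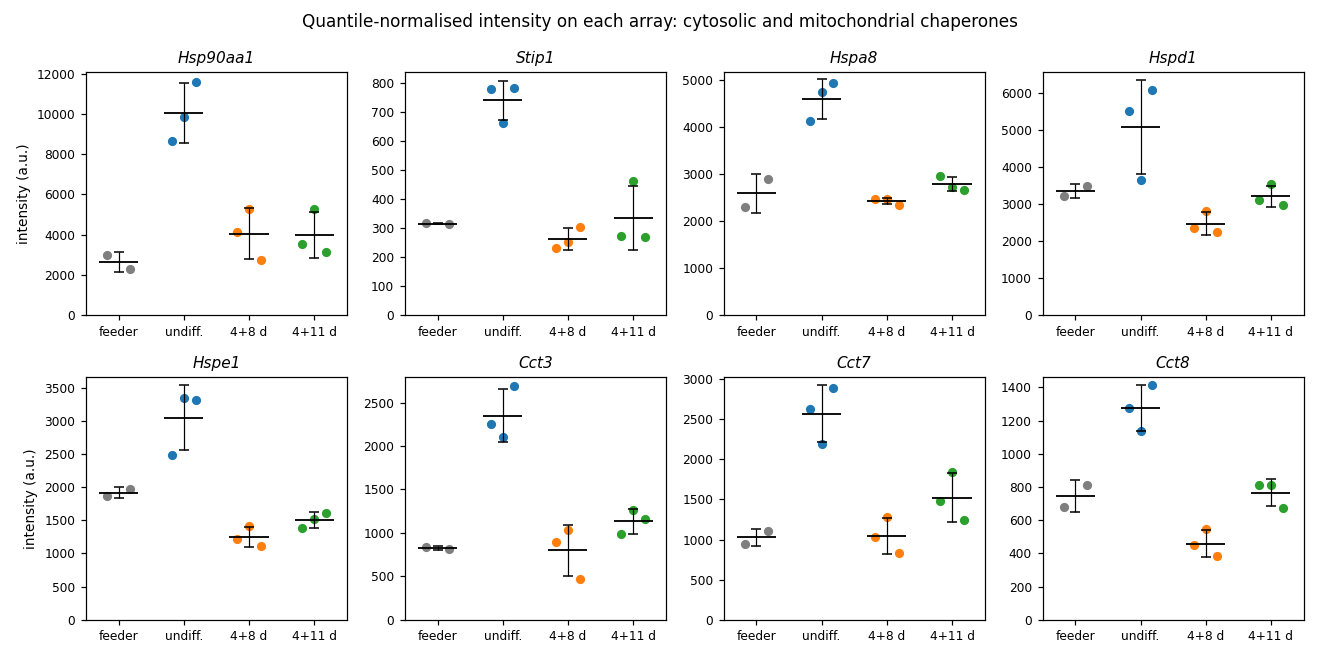
Quantile-normalised intensity (y axis, arbitrary units) of 8 cytosolic and mitochondrial chaperones on each array by group (x axis); points are arrays, horizontal lines means and error bars SDs. For Hsp90aa1 and Stip1 every undifferentiated array lies above all arrays of the other groups.

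Of the 15 HSP70 and HSP110 probe sets, all tested, 7 were called lower at 4+8 days, 7 at 4+11 days and 5 in feeder cells. These were 46.7%, 46.7% and 33.3%, and 0, 1 and 0 were called higher. Over all tested probe sets 19.9%, 9.44% and 10.3% were called lower and 17.2%, 9.22% and 10% higher. The medians of the 15 were −0.76, −0.81 and −0.45. By gene, with the brightest probe set standing for each, 4, 4 and 2 of 11 were called lower (36.4%, 36.4% and 18.2%). Several of the lower probe sets were of Hspa4. Hspa8, the constitutive HSP70 of the cytosol, read 2308 and 2896 in feeder cells, 4129, 4759 and 4935 in undifferentiated cells, 2471, 2471 and 2349 at 4+8 days, and 2958, 2739.8 and 2665 at 4+11 days. It differed from undifferentiated cells by −0.92 ± 0.17 (SE, adjusted p = 0.00248) at 4+8 days, by −0.72 ± 0.17 (SE, adjusted p = 0.016) at 4+11 days and by −0.83 ± 0.19 (SE, adjusted p = 0.013) in feeder cells. Hspa14, which pairs with the J protein Dnajc2 at the ribosome, read 120.4 and 204 in feeder cells, 377, 298 and 431 in undifferentiated cells, 90.6, 57.7 and 92.4 at 4+8 days, and 137, 173 and 133 at 4+11 days. Its undifferentiated arrays were the brightest of the 11, and the differences were −2.10 ± 0.26 (SE, adjusted p = 3.58e-04), −1.27 ± 0.26 (SE, adjusted p = 0.00959) and −1.18 ± 0.29 (SE, adjusted p = 0.0199). Hspa9, the mitochondrial HSP70, read 1683 and 2088 in feeder cells, 1785, 1870.3 and 2460.2 in undifferentiated cells, 1219, 1637 and 1221 at 4+8 days, and 1306, 1299.8 and 885 at 4+11 days. Hspa9 was called lower at 4+11 days alone among these comparisons, at −0.81 ± 0.23 (SE, adjusted p = 0.0368). Hspa8 and Hspa9 lost their 4+11 day calls in 3 and 5 of 6 fits with 1 array left out. For Hspa8 and Hspa9 the adjusted p reached 0.0671 and 0.135, without undifferentiated replicate 9. Hspa8 and Hspa14 lost their feeder calls in 2 and 3 of 5 fits with 1 array left out. For Hspa8 and Hspa14 the adjusted p reached 0.141 and 0.199, without feeder replicate 6.

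The HSP110 genes, whose products exchange the nucleotide of HSP70, differed in direction. Hsph1 (HSP105) read 552 and 865 in feeder cells, 732, 1178 and 988 in undifferentiated cells, 217, 247 and 213 at 4+8 days, and 356, 664 and 417 at 4+11 days. The differentiated arrays lay below the undifferentiated ones, with differences of −2.04 ± 0.28 (SE, adjusted p = 6.31e-04) at 4+8 days and −1.02 ± 0.28 (SE, adjusted p = 0.0326) at 4+11 days, while the feeder difference was −0.45 ± 0.32 (SE, adjusted p = 0.366). At 4+11 days Hsph1 was higher than at 4+8 days, at 1.01 ± 0.28 (SE, adjusted p = 0.0298). Hspa4l read 64.8 and 53.1 in feeder cells, 41.3, 65.2 and 39.8 in undifferentiated cells, 93.4, 159 and 59.7 at 4+8 days, and 80.9, 139.9 and 135 at 4+11 days. Hspa4l was called higher at 4+11 days at 1.15 ± 0.34 (SE, adjusted p = 0.0435). Blocking on the fluidics run put it at 1.04, no longer called (adjusted p = 0.056). Hspa2, an HSP70 best known from the testis, read 44.6 and 52.1 in feeder cells, 24.7, 37.4 and 23.1 in undifferentiated cells, 7.06, 17.7 and 21.9 at 4+8 days, and 35.3, 35.4 and 41.4 at 4+11 days. Hspa2 was called only between 4+11 and 4+8 days, at 1.0 ± 0.27 (SE, adjusted p = 0.0251). It passed the filter on low values (33.4) on 6 arrays, those of feeder cells and 4+11 days and undifferentiated replicate 5. No 4+8 day array passed, so Hspa2 entered the test through groups in which it was higher. Hsph1 and Hspa4l lost their 4+11 day calls in 4 and 6 of 6 fits with 1 array left out. For Hsph1 and Hspa4l the adjusted p reached 0.129 and 0.138, without 4+11 day replicate 4 and without undifferentiated replicate 9 in that order. Hsph1 and Hspa2 lost their 4+11 against 4+8 day calls in 4 and 3 of 6 fits with 1 array left out. For Hsph1 and Hspa2 the adjusted p reached 0.084 and 0.0738, without 4+11 day replicate 8 and without 4+11 day replicate 12 in that order. Hspa4 had 5 probe sets that disagreed in size. The brightest, 96594_at, was at −0.76 ± 0.23 (SE, adjusted p = 0.0264) at 4+8 days, −0.16 ± 0.23 (SE, adjusted p = 0.67) at 4+11 days and −0.053 ± 0.26 (SE, adjusted p = 0.915) in feeder cells. A dimmer one, 92571_at, was at −2.34 ± 0.18 (SE, adjusted p = 3.14e-05), −1.07 ± 0.18 (SE, adjusted p = 0.00411) and −1.32 ± 0.20 (SE, adjusted p = 0.00251) in the same order. Probe sets 100353_g_at and 161745_f_at were called lower in all 3 comparisons, and 100352_at in none. With the fluidics run as a block, 100352_at was called lower at 4+11 days (−0.78, adjusted p = 0.0305) and in feeder cells (−0.88, adjusted p = 0.016).

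The promoter of Hsph1 is shown because it is 1 of the few member promoters with a full heat shock element, the site of heat shock factor. In the RefSeq table of promoter windows (GRCm38.p6), which run from 250 bases before to 50 after a start, 53 of the 61 member genes had at least 1. The element was searched on both strands as 3 alternating copies of GAA and TTC with any 2 bases between neighbours. Its core, which every 3-repeat match also holds, was searched as 2 such copies. The 3-repeat form was in 6 of 67 member windows, those of Hsph1, Hspd1, Hspe1 and Dnajb6, and in 0.603% of all 32851 windows. These 6 windows are not separate sites. Hsph1 and Dnajb6 each hold the same match in overlapping windows of different starts, and Hspd1 and Hspe1 share theirs on opposite strands. The core was in 25.4% of member windows and 15.1% of all. The windows of the inducible genes Dnajb1 and Hspa1b held no 3-repeat match. A match is a run of letters and was not tested as a binding site. Capitals mark the 3-repeat match in the sequence below, which lies 15 to 27 bases after the start of this window's transcript.
Hsph1 promoter, GRCm38.p6 chr5:149636266-149636565, minus strand: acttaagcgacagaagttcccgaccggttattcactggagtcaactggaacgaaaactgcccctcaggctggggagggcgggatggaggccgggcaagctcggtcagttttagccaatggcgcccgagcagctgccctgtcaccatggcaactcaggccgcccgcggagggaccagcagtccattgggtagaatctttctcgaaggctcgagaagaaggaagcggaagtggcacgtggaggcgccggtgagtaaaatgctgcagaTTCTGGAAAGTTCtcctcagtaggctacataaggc

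Stress-inducible HSP70 genes were high on a single undifferentiated array. Hspa1a, one of the near-identical pair of inducible cytosolic HSP70 genes, read 59.8 and 74.8 in feeder cells, 66.8, 1012 and 124 in undifferentiated cells, 70.3, 85.2 and 65.1 at 4+8 days, and 67.8, 47.2 and 72.9 at 4+11 days. Undifferentiated replicate 5 stood far above all other arrays, and of the remaining undifferentiated arrays replicate 1 was within the range of the other groups and replicate 9 above it. Hspa1b, the other gene of the pair, read 189 and 156 in feeder cells, 102, 576 and 129 in undifferentiated cells, 68.0, 76.6 and 65.3 at 4+8 days, and 140.5, 75.7 and 229.7 at 4+11 days, again with replicate 5 as the brightest array. The probes of these genes can pick up each other's RNA. Dnajb1, the main inducible J protein of the cytosol, read 183 and 211 in feeder cells, 179, 415 and 319 in undifferentiated cells, 171, 181 and 199.9 at 4+8 days, and 267, 357 and 174 at 4+11 days, and Hsph1 was also brightest on replicate 5, at 1178. Hspa1a was not called, at −1.42 ± 0.75 (SE, adjusted p = 0.162) at 4+8 days, −1.63 ± 0.75 (SE, adjusted p = 0.16) at 4+11 days and −1.53 ± 0.84 (SE, adjusted p = 0.239) in feeder cells. Without undifferentiated replicate 5 these differences were −0.30, −0.52 and −0.41. Hspa1b was at −1.41 ± 0.57 (SE, adjusted p = 0.079) at 4+8 days, −0.52 ± 0.57 (SE, adjusted p = 0.576) at 4+11 days and −0.20 ± 0.64 (SE, adjusted p = 0.874) in feeder cells, and at −0.65, 0.23 and 0.55 without replicate 5. Hsph1 at 4+8 days remained called in every fit with 1 array left out, with values of −2.22 to −1.88. The deposited trimmed mean of replicate 5 was the lowest of the 11 arrays, at 86.2, and its part in these values was not tested.

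**Figure D3:**
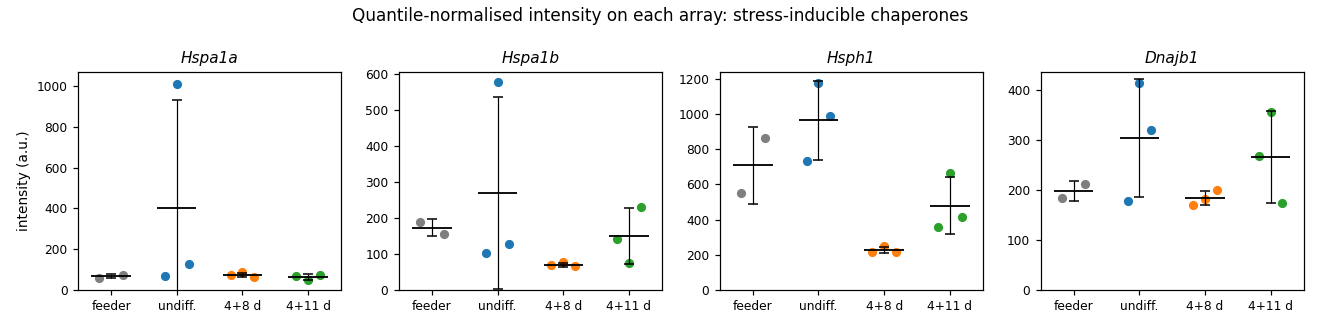
Quantile-normalised intensity (y axis, arbitrary units) of 4 stress-inducible chaperones on each array by group (x axis); points are arrays, horizontal lines means and error bars SDs. Undifferentiated replicate 5 is the brightest array for Hspa1a, at 1012, and for Hspa1b, at 576.

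Both parts of the mitochondrial chaperonin were lower at 4+8 days than in undifferentiated cells. Hspe1 (HSP10), the lid of the barrel, read 1861 and 1971 in feeder cells, 2477, 3347 and 3319 in undifferentiated cells, 1211, 1407 and 1109 at 4+8 days, and 1378, 1525 and 1611 at 4+11 days. No array of another group reached the undifferentiated ones, and the difference was −1.28 ± 0.19 (SE, adjusted p = 7.89e-04) at 4+8 days, −1.0 ± 0.19 (SE, adjusted p = 0.0062) at 4+11 days and −0.65 ± 0.21 (SE, adjusted p = 0.0511) in feeder cells. The last was not called in the fit on all 11 arrays, and was called lower with the fluidics run as a block (−0.68, adjusted p = 0.0345). Hspd1 (HSP60), the barrel itself, read 3213 and 3471 in feeder cells, 5514, 3656 and 6067 in undifferentiated cells, 2354, 2811 and 2244 at 4+8 days, and 3097, 3534 and 2977 at 4+11 days. Hspd1 differed by −1.01 ± 0.22 (SE, adjusted p = 0.00579), −0.63 ± 0.22 (SE, adjusted p = 0.0687) and −0.57 ± 0.24 (SE, adjusted p = 0.131), of which only the first was called. The 4+8 day calls of both and the 4+11 day call of Hspe1 passed in all 6 fits with 1 array left out. A dimmer Hspd1 probe set, 161140_r_at, was called in none of the 3, at −0.47, −1.04 and −0.80.

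Hspd1 and Hspe1 lie head to head on chromosome 1, so their promoter is shown as a shared one. RefSeq lists 2 starts for Hspd1, and the start base of Hspe1 lay 216 bases from one of them, with transcription running away on both sides. The other Hspd1 start lay within Hspe1 (−95 on the same measure), so transcripts from it overlap those of Hspe1. The window of Hspe1 holds 2 overlapping 3-repeat matches, in capitals below. The window of the Hspd1 start at 216 bases holds the same letters on the other strand.
Hspe1 promoter, GRCm38.p6 chr1:55087898-55088197, plus strand: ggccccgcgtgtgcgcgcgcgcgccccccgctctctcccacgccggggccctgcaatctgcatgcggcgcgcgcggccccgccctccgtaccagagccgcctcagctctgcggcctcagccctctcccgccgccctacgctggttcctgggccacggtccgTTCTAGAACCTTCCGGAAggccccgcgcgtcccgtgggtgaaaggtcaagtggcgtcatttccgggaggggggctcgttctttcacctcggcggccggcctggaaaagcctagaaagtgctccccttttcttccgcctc

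Other proteins of mitochondrial folding and turnover included several that were lower. Of 11 measured, 10 were tested. Of these, 6 were called lower and 1 higher at 4+8 days, 2 and 0 at 4+11 days, and 5 and 0 in feeder cells. Over all tested probe sets the shares were 19.9% and 17.2%, 9.44% and 9.22%, and 10.3% and 10% in that order. The medians of the 11 genes were −0.62, −0.45 and −0.61. Grpel2, a nucleotide exchange factor of mitochondrial HSP70, differed by −1.76 ± 0.16 (adjusted p = 7.47e-05) at 4+8 days and −0.63 ± 0.16 (adjusted p = 0.0227) at 4+11 days. Clpp, the protease of the mitochondrial matrix, was at −1.51 ± 0.24 (adjusted p = 0.00132) at 4+8 days, and Tomm70a, an import receptor that docks cytosolic chaperones, at −1.13 ± 0.22 (adjusted p = 0.00747) in feeder cells. Htra2, a protease of the space between the mitochondrial membranes, was the one called higher at 4+8 days, at 0.71 ± 0.24 (adjusted p = 0.04).

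CCT, the cytosolic chaperonin whose rings of related subunits fold actin and tubulin, was called lower in most of its measured subunits. Of 14 probe sets for 9 genes, 12 were tested and 2 were not. Of the 12, 8 (66.7%) were called lower at 4+8 days, 7 (58.3%) at 4+11 days and 9 (75%) in feeder cells. In each comparison 0 were called higher. Over all tested probe sets 19.9%, 9.44% and 10.3% were called lower and 17.2%, 9.22% and 10% higher. The medians of the 14 CCT probe sets were −0.75, −0.65 and −0.95. Cct3 read 843 and 814 in feeder cells, 2257, 2106 and 2688 in undifferentiated cells, 898, 1037 and 474 at 4+8 days, and 982, 1262 and 1155 at 4+11 days. All 3 undifferentiated arrays lay above the other 8, with differences of −1.61 ± 0.28 (SE, adjusted p = 0.00191) at 4+8 days, −1.05 ± 0.28 (SE, adjusted p = 0.027) at 4+11 days and −1.49 ± 0.31 (SE, adjusted p = 0.00967) in feeder cells. Cct7 read 951 and 1103 in feeder cells, 2631, 2188 and 2892 in undifferentiated cells, 1029, 1281 and 833 at 4+8 days, and 1477, 1845 and 1244 at 4+11 days. Cct7 differed by −1.30 ± 0.23 (SE, adjusted p = 0.00198), −0.76 ± 0.23 (SE, adjusted p = 0.0423) and −1.31 ± 0.25 (SE, adjusted p = 0.00685). Cct8 read 679 and 812 in feeder cells, 1276, 1139.8 and 1413 in undifferentiated cells, 449, 544 and 384 at 4+8 days, and 813, 809 and 671 at 4+11 days. Cct8 differed by −1.47 ± 0.19 (SE, adjusted p = 4.83e-04), −0.73 ± 0.19 (SE, adjusted p = 0.0269) and −0.77 ± 0.22 (SE, adjusted p = 0.033). Cct4 read 1281 and 1346 in feeder cells, 2958, 2257 and 3306 in undifferentiated cells, 1405, 1507 and 1552 at 4+8 days, and 1734, 1851 and 1468 at 4+11 days. Cct4 was called lower at −0.91, −0.74 and −1.09.

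The remaining subunits were closer to undifferentiated levels or less certain. Tcp1, the subunit after which the complex was first named, read 147 and 145 in feeder cells, 173, 216 and 207 in undifferentiated cells, 241, 307 and 122 at 4+8 days, and 144, 152 and 150.1 at 4+11 days. Its groups overlapped at 4+8 days, and it was not called, at 0.075 ± 0.29 (SE, adjusted p = 0.858), −0.39 ± 0.29 (SE, adjusted p = 0.384) and −0.42 ± 0.32 (SE, adjusted p = 0.414). Cct5 was called lower at 4+11 days (−0.56) and in feeder cells (−0.88) and was at −0.42 ± 0.16 (SE, adjusted p = 0.0672) at 4+8 days, where its dimmer probe set 161514_at was called lower at −0.98. Cct2 was called lower at 4+8 days alone, at −0.64, and Cct6a in feeder cells alone, at −1.09. Cct6b, a form known from the testis, was not called, at 0.32, −0.26 and −0.31. Between 4+11 and 4+8 days Cct8 alone was called, at 0.74 ± 0.19 (SE, adjusted p = 0.0242). Cct3, Cct4 and Cct7 lost their 4+11 day calls in 5, 4 and 5 of 6 fits with 1 array left out. For Cct3, Cct4 and Cct7 the adjusted p reached 0.104, 0.0994 and 0.142, without 4+11 day replicate 4, without undifferentiated replicate 9 and without undifferentiated replicate 9 in that order. Cct8 lost its 4+11 against 4+8 day call in 2 of 6 fits with 1 array left out (adjusted p up to 0.0869, without 4+11 day replicate 4). Cct3, Cct4 and Cct7 lost their feeder calls in 2, 2 and 1 of 5 fits with 1 array left out. For Cct3, Cct4 and Cct7 the adjusted p reached 0.0713, 0.0688 and 0.074, without feeder replicate 10, without feeder replicate 6 and without feeder replicate 6 in that order. With the fluidics run as a block, 6 of the 7 CCT probe sets lower at 4+11 days and 9 of the 9 in feeder cells were called lower again. The one lost was the Cct3 probe set 161238_f_at (−0.92, adjusted p = 0.0553), and Cct6a was called lower at 4+11 days as well (−0.83, adjusted p = 0.0142).

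Calls among the partners that feed CCT went both ways at 4+8 and 4+11 days, more of them lower, and only lower in feeder cells. Of 10 genes of prefoldin, the tubulin cofactors and phosducin-like proteins, 9 were tested. Of these, 3 were called lower and 1 higher at 4+8 days, 2 and 1 at 4+11 days, and 3 and 0 in feeder cells. Over all tested probe sets the shares were 19.9% and 17.2%, 9.44% and 9.22%, and 10.3% and 10% in that order. The medians of the 10 genes were −0.16, −0.20 and −0.27. The prefoldin subunit Pfdn6 was at −0.94 ± 0.22 (adjusted p = 0.00815) at 4+8 days, −0.93 ± 0.22 (adjusted p = 0.0168) at 4+11 days and −1.02 ± 0.24 (adjusted p = 0.0167) in feeder cells. Pfdn5, another subunit of the same complex, was called higher at 4+8 days, at 0.57 ± 0.20 (adjusted p = 0.0475), and Tbcb, a tubulin folding cofactor, lower at −1.58 ± 0.44 (adjusted p = 0.0189).

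DNAJ proteins of the cytosol, nucleus and mitochondria split by member. The largest difference of any member was that of Dnajc21, a J protein which in human cells takes part in ribosome biogenesis. Dnajc21 read 46.6 and 74.5 in feeder cells, 222, 238 and 239 in undifferentiated cells, 23.7, 12.1 and 19.1 at 4+8 days, and 61.1, 82.0 and 44.4 at 4+11 days. The undifferentiated arrays lay above all others and the 4+8 day arrays below all others, with differences of −3.22 ± 0.26 (SE, adjusted p = 4.23e-05) at 4+8 days, −1.81 ± 0.26 (SE, adjusted p = 0.00202) at 4+11 days and −1.84 ± 0.29 (SE, adjusted p = 0.00294) in feeder cells. At 4+11 days it was higher than at 4+8 days, by 1.41 ± 0.26 (SE, adjusted p = 0.00599). Every 4+8 day array of Dnajc21 lay below 33.4, the filter on low values. The sizes of both differences that involve 4+8 days thus depend on low signal and on the 8 added before log2. Dnajc2, the ribosomal partner of Hspa14, read 267 and 311 in feeder cells, 633, 499 and 764 in undifferentiated cells, 332, 366 and 239 at 4+8 days, and 339, 349.9 and 329 at 4+11 days. Dnajc2 was called lower at −1.0, −0.86 and −1.09. Dnajc8, which is associated with the splicing machinery, read 1258 and 1312 in feeder cells, 2530.1, 2385 and 2665 in undifferentiated cells, 1649, 1813 and 1492 at 4+8 days, and 1413, 1804 and 1359 at 4+11 days. Dnajc8 was called lower at −0.61, −0.74 and −0.97. Dnajc2 and Dnajc8 lost their 4+11 day calls in 4 and 4 of 6 fits with 1 array left out. For Dnajc2 and Dnajc8 the adjusted p reached 0.0956 and 0.0776, without undifferentiated replicate 9 and without 4+11 day replicate 4 in that order. Dnajc2 and Dnajc8 lost their feeder calls in 3 and 2 of 5 fits with 1 array left out. For Dnajc2 and Dnajc8 the adjusted p reached 0.116 and 0.0776, without feeder replicate 6.

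Among the mitochondrial J proteins, Dnaja3 read 324 and 293 in feeder cells, 382, 348 and 425 in undifferentiated cells, 177, 117 and 276 at 4+8 days, and 285, 281 and 256 at 4+11 days. Dnaja3 was called lower at 4+8 days at −1.07 ± 0.27 (SE, adjusted p = 0.0119). Dnajc11 read 68.1 and 71.5 in feeder cells, 75.1, 59.4 and 97.2 in undifferentiated cells, 23.3, 49.4 and 9.98 at 4+8 days, and 37.7, 84.7 and 72.5 at 4+11 days, with wide scatter at 4+8 days and a difference there of −1.40 ± 0.41 (SE, adjusted p = 0.0232). Dnajc15 was called lower at 4+8 days at −0.66, as was Dnajc13, a J protein of endosomes, at −1.11. Dnaja2, a general cytosolic J protein, read 139 and 86.9 in feeder cells, 236, 218 and 273 in undifferentiated cells, 227, 241 and 154 at 4+8 days, and 205, 278 and 179 at 4+11 days. Dnaja2 was called lower in feeder cells at −1.08 ± 0.29 (SE, adjusted p = 0.026). Dnaja1, its relative, was not called, at 0.86 ± 0.39 (SE, adjusted p = 0.107), 0.88 ± 0.39 (SE, adjusted p = 0.144) and 0.077 ± 0.43 (SE, adjusted p = 0.927), but with the fluidics run as a block it was called higher at 4+11 days (0.93, adjusted p = 0.031). Dnajc11 lost its 4+8 day call in 4 of 6 fits with 1 array left out (adjusted p up to 0.0835, without undifferentiated replicate 9). Dnaja2 lost its feeder call in 4 of 5 fits with 1 array left out (adjusted p up to 0.224, without feeder replicate 10).

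Dnajb2, Dnajb6, Dnajb3 and Dnajc7 each passed the test in 1 or more comparisons, in differing directions. Dnajb2, which is known from neurons, read 105 and 141 in feeder cells, 52.8, 38.3 and 60.5 in undifferentiated cells, 76.2, 55.1 and 74.1 at 4+8 days, and 90.4, 93.1 and 62.8 at 4+11 days. Dnajb2 was called higher in feeder cells at 1.17 ± 0.26 (SE, adjusted p = 0.0129). Dnajb6, which restrains aggregation, read 678 and 683 in feeder cells, 1022, 1059 and 1319.7 in undifferentiated cells, 805, 900.4 and 878 at 4+8 days, and 1070.3, 1066 and 1070.3 at 4+11 days. Dnajb6 was called lower in feeder cells at −0.72 ± 0.18 (SE, adjusted p = 0.0219), with its dimmer probe set 104625_at lower at 4+8 days too, at −1.25 ± 0.27 (SE, adjusted p = 0.00594). Dnajb3, known from the testis, read 33.1 and 14.3 in feeder cells, 37.4, 26.6 and 15.2 in undifferentiated cells, 49.4, 73.5 and 72.4 at 4+8 days, and 17.1, 28.8 and 7.16 at 4+11 days. Only 4 arrays of this probe set, 97481_r_at, passed the filter on low values (33.4), the 3 at 4+8 days and undifferentiated replicate 1. The probe set thus entered the test through the group in which it was high. By it Dnajb3 was called higher at 4+8 days at 1.12 ± 0.38 (SE, adjusted p = 0.0415). It was called lower at 4+11 than at 4+8 days, at −1.58 ± 0.38 (SE, adjusted p = 0.0168). The other Dnajb3 probe set, 97480_f_at, did not show this rise. It was called higher in feeder cells instead, by 1.37. Only its feeder arrays, at 40.5 and 48.1, passed the filter. Neither differentiated group was called on it, with −0.29 for the earlier time and 0.38 for the later one. Dnajc7, a J protein with the repeats that bind HSP70 and HSP90, read 272 and 289.6 in feeder cells, 434, 375 and 535 in undifferentiated cells, 616, 672 and 355 at 4+8 days, and 346, 308 and 242 at 4+11 days. Dnajc7 was called lower at 4+11 than at 4+8 days, at −0.82 ± 0.27 (SE, adjusted p = 0.0496). Dnajb3 lost its 4+8 day call in 4 of 6 fits with 1 array left out (adjusted p up to 0.148, without undifferentiated replicate 9). Dnajb3 and Dnajc7 lost their 4+11 against 4+8 day calls in 2 and 5 of 6 fits with 1 array left out. For Dnajb3 and Dnajc7 the adjusted p reached 0.054 and 0.147, without 4+11 day replicate 12. Dnajb2 and Dnajb6 lost their feeder calls in 2 and 3 of 5 fits with 1 array left out. For Dnajb2 and Dnajb6 the adjusted p reached 0.121 and 0.133, without feeder replicate 10 and without feeder replicate 6 in that order. Dnajb1, Dnajb4, Dnajb13, Dnajc4, Dnajc5, Dnajc9 and Dnajc17 were called in none of the 4 comparisons by the probe set that stands for the gene, with differences from undifferentiated cells between −0.84 and 1.08. Some of these calls differed in the fit with the fluidics run as a block, which leaves out the 4+8 day arrays. With it Dnajb13 was lower at 4+11 days (−0.80, adjusted p = 0.0239) and in feeder cells (−0.86, adjusted p = 0.0144), and Dnajb4 was higher in feeder cells (1.07, adjusted p = 0.0202). Dnajb2 was also higher at 4+11 days (0.74, adjusted p = 0.0367), and Dnajc7 was lower in feeder cells (−0.67, adjusted p = 0.0399). The dimmer Dnajc8 probe set 95700_r_at was lower at 4+11 days (−0.56, adjusted p = 0.0413) and in feeder cells (−0.79, adjusted p = 0.0119).

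The main ER chaperones Hspa5 and Hsp90b1 were not called in any of the 4 comparisons in the fit on all 11 arrays. Hspa5 (BiP), the HSP70 of the ER, read 3097 and 3534 in feeder cells, 1555, 2437 and 2221 in undifferentiated cells, 1525, 1804 and 2037 at 4+8 days, and 2583, 2776 and 1861 at 4+11 days. Its groups overlapped at both times. It was not called, at −0.19 ± 0.24 (SE, adjusted p = 0.542) at 4+8 days, 0.22 ± 0.24 (SE, adjusted p = 0.563) at 4+11 days and 0.70 ± 0.26 (SE, adjusted p = 0.0906) in feeder cells. Hsp90b1 read 2553 and 3319 in feeder cells, 1883, 1912 and 2152 in undifferentiated cells, 1798, 1583 and 2088 at 4+8 days, and 2088, 2070.2 and 1655 at 4+11 days. Hsp90b1 was not called either, at −0.13 ± 0.19 (SE, adjusted p = 0.632), −0.038 ± 0.19 (SE, adjusted p = 0.914) and 0.56 ± 0.21 (SE, adjusted p = 0.0985). With the fluidics run as a block it was called higher in feeder cells (0.52, adjusted p = 0.0481), and it was 0.43 and 0.62 above undifferentiated cells within runs 1 and 2.

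Dnajc3, Dnajb9 and Dnajb11, J proteins of the ER, were lower at 4+8 days than in undifferentiated cells, and higher at 4+11 days than at 4+8 days. Dnajc3 (P58IPK), which also restrains a kinase of the unfolded protein response, read 300.0 and 439 in feeder cells, 126, 145 and 147 in undifferentiated cells, 64.6, 51.9 and 30.9 at 4+8 days, and 288, 222 and 179.6 at 4+11 days. The 4+8 day arrays lay below all others, with a difference of −1.41 ± 0.27 (SE, adjusted p = 0.00348) from undifferentiated cells. It was 2.08 ± 0.27 (SE, adjusted p = 0.00177) higher at 4+11 than at 4+8 days, and 1.33 ± 0.31 (SE, adjusted p = 0.0142) higher in feeder cells than in undifferentiated ones. Dnajb9 (ERdj4), which binds misfolded ER proteins and BiP, read 178 and 103 in feeder cells, 98.4, 230.4 and 126 in undifferentiated cells, 48.1, 24.1 and 80.5 at 4+8 days, and 231, 186 and 218 at 4+11 days. Dnajb9 differed by −1.47 ± 0.40 (SE, adjusted p = 0.0175) at 4+8 days and 2.01 ± 0.40 (SE, adjusted p = 0.00823) between 4+11 and 4+8 days. Dnajb11 (ERdj3), a BiP cochaperone, read 258 and 377 in feeder cells, 195, 185 and 221 in undifferentiated cells, 87.6, 84.7 and 68.4 at 4+8 days, and 248, 234 and 244 at 4+11 days. Dnajb11 differed by −1.24 ± 0.19 (SE, adjusted p = 0.00106) and 1.51 ± 0.19 (SE, adjusted p = 0.0015) in the same order. Other probe sets of these genes differed in part. Dnajc3's 94343_at was at −0.14 ± 0.24 (SE, adjusted p = 0.683) at 4+8 days and 0.98 ± 0.24 (SE, adjusted p = 0.0209) at 4+11 days, and Dnajb9's 96679_at was at −0.16 ± 0.32 (SE, adjusted p = 0.716) at 4+8 days. With the fluidics run as a block Dnajc3 was also called higher at 4+11 days than in undifferentiated cells (0.81, adjusted p = 0.046), as was its dimmer probe set 102415_r_at in feeder cells (1.63, adjusted p = 0.0206).

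Dnajc10 (ERdj5), which reduces disulfide bonds, read 614 and 552 in feeder cells, 343, 262 and 326 in undifferentiated cells, 259, 301 and 274 at 4+8 days, and 445, 472 and 407 at 4+11 days. Dnajc10 was called higher in feeder cells at 0.90 ± 0.19 (SE, adjusted p = 0.011) and at 4+11 against 4+8 days at 0.65 ± 0.17 (SE, adjusted p = 0.0248). Dnajc1 (ERdj1), a membrane J protein that meets the ribosome, read 172 and 174 in feeder cells, 82.8, 84.0 and 81.7 in undifferentiated cells, 93.0, 110.2 and 69.9 at 4+8 days, and 144, 111 and 149.6 at 4+11 days. Dnajc1 was called higher in feeder cells at 0.99 ± 0.22 (SE, adjusted p = 0.0128) and at 4+11 days at 0.64 ± 0.20 (SE, adjusted p = 0.0489). Dnajb9 lost its 4+8 day call in 1 of 6 fits with 1 array left out (adjusted p up to 0.0639, without undifferentiated replicate 5). Dnajc1 lost its 4+11 day call in 5 of 6 fits with 1 array left out (adjusted p up to 0.156, without 4+11 day replicate 4). Dnajc10 lost its 4+11 against 4+8 day call in 3 of 6 fits with 1 array left out (adjusted p up to 0.08, without 4+11 day replicate 4). Dnajc3, Dnajc10 and Dnajc1 lost their feeder calls in 2, 2 and 2 of 5 fits with 1 array left out. For Dnajc3, Dnajc10 and Dnajc1 the adjusted p reached 0.133, 0.101 and 0.0891, without feeder replicate 10, without feeder replicate 6 and without feeder replicate 6 in that order. Because the 4+8 day arrays were scanned apart, the difference between 4+11 and 4+8 days cannot be told apart from the session.

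**Figure D4:**
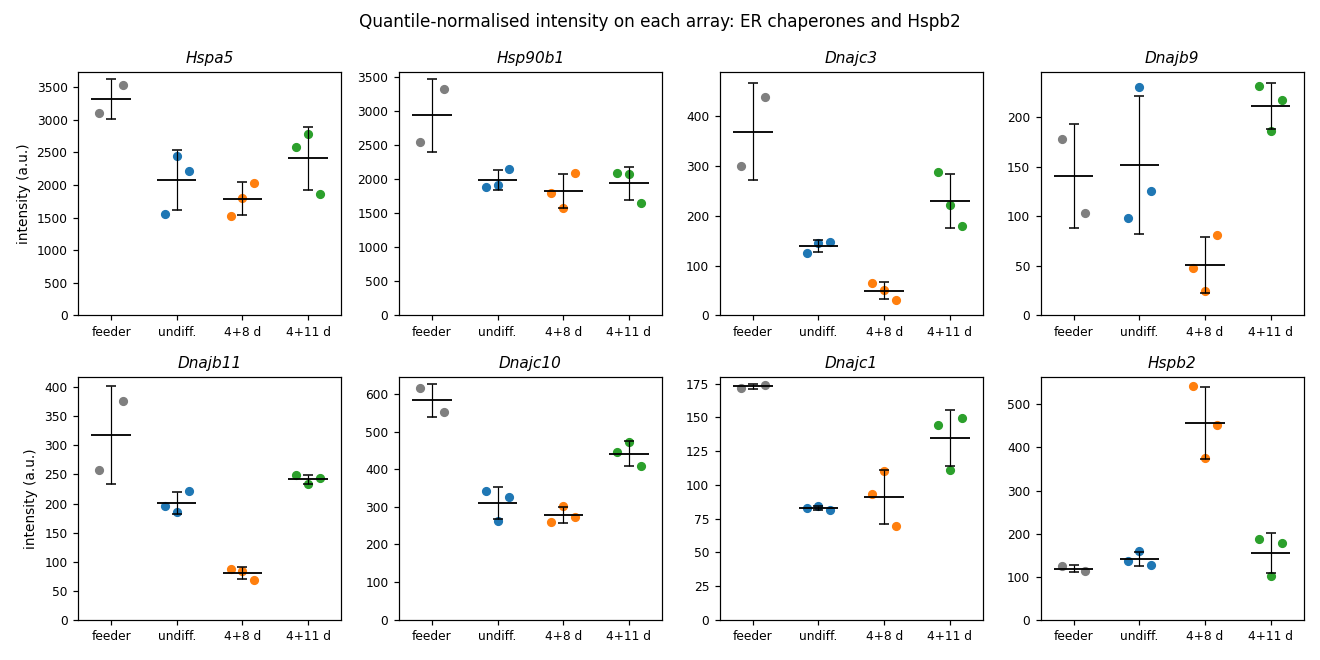
Quantile-normalised intensity (y axis, arbitrary units) of 7 ER chaperones and of Hspb2 on each array by group (x axis); points are arrays, horizontal lines means and error bars SDs. The 4+8 day arrays of Dnajc3, Dnajb9 and Dnajb11 lie below all arrays of the other groups, and those of Hspb2 above all.

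Promoters of 3 ER members hold the ER stress element, the site at which the unfolded protein response acts on many ER chaperone genes. It was searched on both strands as CCAAT and CCACG with any 9 bases between, and was in the windows of Hspa5, Hsp90b1 and Dnajc3, 3 of 67 member windows, and in 0.119% of all 32851. These promoters are shown so that genes with a like element and different values can be compared, with capitals marking each match. Hsp90b1 holds 2 matches and the other genes 1 each.
Hspa5 promoter, GRCm38.p6 chr2:34771840-34772139, plus strand: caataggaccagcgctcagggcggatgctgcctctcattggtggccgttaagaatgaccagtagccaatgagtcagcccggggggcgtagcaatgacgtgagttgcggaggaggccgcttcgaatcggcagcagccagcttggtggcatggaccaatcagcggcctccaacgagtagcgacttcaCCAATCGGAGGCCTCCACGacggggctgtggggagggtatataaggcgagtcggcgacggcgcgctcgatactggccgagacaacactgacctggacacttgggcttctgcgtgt
Hsp90b1 promoter, GRCm38.p6 chr10:86705395-86705694, minus strand: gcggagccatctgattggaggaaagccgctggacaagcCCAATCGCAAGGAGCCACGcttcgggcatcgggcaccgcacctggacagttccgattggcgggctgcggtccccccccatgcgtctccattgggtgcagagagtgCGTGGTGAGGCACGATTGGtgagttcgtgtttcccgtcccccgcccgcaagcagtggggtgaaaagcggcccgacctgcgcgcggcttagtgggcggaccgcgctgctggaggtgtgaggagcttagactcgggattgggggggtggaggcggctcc
Dnajc3 promoter, GRCm38.p6 chr14:118937682-118937981, plus strand: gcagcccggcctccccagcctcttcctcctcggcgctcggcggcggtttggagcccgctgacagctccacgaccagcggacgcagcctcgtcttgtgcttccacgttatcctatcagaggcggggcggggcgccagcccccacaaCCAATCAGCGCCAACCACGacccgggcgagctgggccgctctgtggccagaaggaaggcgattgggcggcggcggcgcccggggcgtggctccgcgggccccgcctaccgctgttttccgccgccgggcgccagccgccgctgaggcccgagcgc

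Further ER folding genes went both ways. Of 24 measured, 22 were tested. Of these, 6 were called higher and 2 lower at 4+8 days, 2 and 1 at 4+11 days, and 5 and 0 in feeder cells. Over all tested probe sets the shares were 17.2% and 19.9%, 9.22% and 9.44%, and 10% and 10.3% in that order. The medians of the 24 genes were 0.17, 0.29 and 0.54. Serpinh1 (HSP47), the collagen chaperone, was at 1.33 ± 0.29 (adjusted p = 0.00619) at 4+8 days, 1.72 ± 0.29 (adjusted p = 0.00409) at 4+11 days and 2.31 ± 0.32 (adjusted p = 0.00171) in feeder cells. Ppic, an immunophilin of the secretory pathway, was at 1.54, 1.59 and 1.95, called higher in each. The 11 fibroblast markers summed to 42797 to 47093 in feeder cells, 8203 to 13197 in undifferentiated cells, 11711 to 42535 at 4+8 days and 15205 to 25914 at 4+11 days, and their part in these values was not tested. Pdia4, a disulfide isomerase, was called lower at 4+8 days at −2.16 ± 0.53 (adjusted p = 0.0107) and higher at 4+11 than at 4+8 days, by 2.09 ± 0.53 (adjusted p = 0.0215). Xbp1, a transcription factor of the unfolded protein response, was called higher at 4+11 than at 4+8 days, by 0.95 ± 0.24 (adjusted p = 0.0195).

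Small heat shock proteins, which hold unfolded proteins without ATP, included the member with the largest rise at 4+8 days. Hspb2, known from heart and skeletal muscle, read 125 and 113 in feeder cells, 137, 160.4 and 128 in undifferentiated cells, 542, 375 and 451 at 4+8 days, and 187, 101 and 177 at 4+11 days. The 4+8 day arrays lay above all others, with a difference of 1.62 ± 0.25 (SE, adjusted p = 0.00107) from undifferentiated cells, and the gene was lower at 4+11 than at 4+8 days at −1.54 ± 0.25 (SE, adjusted p = 0.00401). The 12 cardiac and skeletal muscle markers summed to 906 to 1801 in feeder cells, 429.8 to 501 in undifferentiated cells, 7512 to 17504 at 4+8 days and 1371 to 4221 at 4+11 days. Of these markers 12 were called higher at 4+8 days and 9 at 4+11 days against undifferentiated cells, and their part in the Hspb2 result was not tested. The crystallins Cryab and Cryaa, small heat shock proteins of lens and, for Cryab, of muscle, were called higher at 4+8 days, at 1.21 ± 0.38 (adjusted p = 0.0313) and 1.33 ± 0.22 (adjusted p = 0.0014).

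Hspb11, a small heat shock family member that belongs to the intraflagellar transport machinery of cilia, read 222 and 197 in feeder cells, 121, 139 and 118 in undifferentiated cells, 69.9, 63.9 and 94.7 at 4+8 days, and 173, 160.3 and 159 at 4+11 days. It was called lower at 4+8 days at −0.68 ± 0.18 (SE, adjusted p = 0.0162), higher in feeder cells at 0.70 ± 0.21 (SE, adjusted p = 0.0388), and higher at 4+11 than at 4+8 days by 1.05 ± 0.18 (SE, adjusted p = 0.00521). Hspb11 lost its 4+8 day call in 1 of 6 fits with 1 array left out (adjusted p up to 0.0592, without undifferentiated replicate 5). Hspb11 lost its feeder call in 5 of 5 fits with 1 array left out (adjusted p up to 0.225, without feeder replicate 6). Hspb8, which works with Bag3, was not called, at −0.040, −0.35 and 0.69. Hspb1 (HSP25), the best known small heat shock protein, read 13.0 and 13.8 in feeder cells, 3.44, 5.78 and 4.60 in undifferentiated cells, 23.6, 5.17 and 3.11 at 4+8 days, and 7.41, 2.70 and 3.88 at 4+11 days. Hspb1 was not tested because it did not pass 33.4, the filter on low values, on at least 2 arrays.

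Of the BAG cochaperones, which release clients from HSP70, Bag2 and Bag6 were called in several comparisons. Bag2, an inhibitor of the ubiquitin ligase Stub1, read 412 and 406 in feeder cells, 229.9, 222 and 189 in undifferentiated cells, 327, 401 and 406 at 4+8 days, and 268, 237 and 322 at 4+11 days, on probe set 161129_r_at. It was called higher at 0.80 ± 0.18 (SE, adjusted p = 0.00779) at 4+8 days and 0.92 ± 0.21 (SE, adjusted p = 0.0127) in feeder cells, and was at 0.35 ± 0.18 (SE, adjusted p = 0.214) at 4+11 days. A dimmer probe set of Bag2, 160962_at, was at 1.17 ± 0.18 (SE, adjusted p = 0.00109), 1.13 ± 0.20 (SE, adjusted p = 0.00493) and 0.64 ± 0.18 (SE, adjusted p = 0.0358) in that order. Bag6, which guards tail-anchored and mislocalised proteins, read 119.9 and 126 in feeder cells, 134, 207 and 165 in undifferentiated cells, 344, 301 and 272 at 4+8 days, and 181, 206 and 105 at 4+11 days. Bag6 was called higher at 4+8 days at 0.84 ± 0.26 (SE, adjusted p = 0.0301) and lower at 4+11 than at 4+8 days at −0.91 ± 0.26 (SE, adjusted p = 0.0325), on 1 of its 4 probe sets. Bag6 lost its 4+8 day call in 3 of 6 fits with 1 array left out (adjusted p up to 0.111, without undifferentiated replicate 1). Bag6 lost its 4+11 against 4+8 day call in 4 of 6 fits with 1 array left out (adjusted p up to 0.0913, without 4+11 day replicate 12). Bag2 lost its feeder call in 3 of 5 fits with 1 array left out (adjusted p up to 0.0951, without feeder replicate 6). Bag1, Bag3 and Hspbp1, further exchange factors of HSP70, were not called in any comparison, with Bag3 at −0.48, 0.63 and 0.24.

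Few regulators of these genes could be tested, and those called against undifferentiated cells were all higher. Of 7 heat shock factors and stress regulators measured, 5 were tested. Of these, 1 was called higher at 4+8 days, 1 at 4+11 days and 2 in feeder cells, and 0 were called lower. Over all tested probe sets 17.2%, 9.22% and 10% were called higher. Hsbp1, which binds heat shock factor and curbs it, was at 2.08 ± 0.24 (adjusted p = 2.59e-04) at 4+8 days, 2.06 ± 0.24 (adjusted p = 7.76e-04) at 4+11 days and 1.04 ± 0.27 (adjusted p = 0.024) in feeder cells. Ddit3 (CHOP), a transcription factor of the ER stress response, was at 1.90 ± 0.29 (adjusted p = 0.00253) in feeder cells. Hsf2, a heat shock factor, was not tested, and no probe set used here had Hsf1 as its only symbol. Hmox1, an oxidative stress gene, was not called, at −0.17, −0.29 and −0.20.

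The 11 member probe sets that were not tested passed the filter on low values on at most 1 array. They belonged to Hspb1, Hspb2, Hspb8, Dnajb5, Dnajb8, Bag2, Cct6a, Dnajc1, Dnajc3, Hsp90aa1 and Tcp1, of which Hspb1, Dnajb5 and Dnajb8 had no other probe set. Dnajb5 and Dnajb8 were at 0.51 and 0.36 at 4+8 days, with no test. The remaining HSP70 family member, Hspa1l, which is known from the testis, was tested and not called, at −0.065, −0.027 and −0.39.

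**Figure D5:**
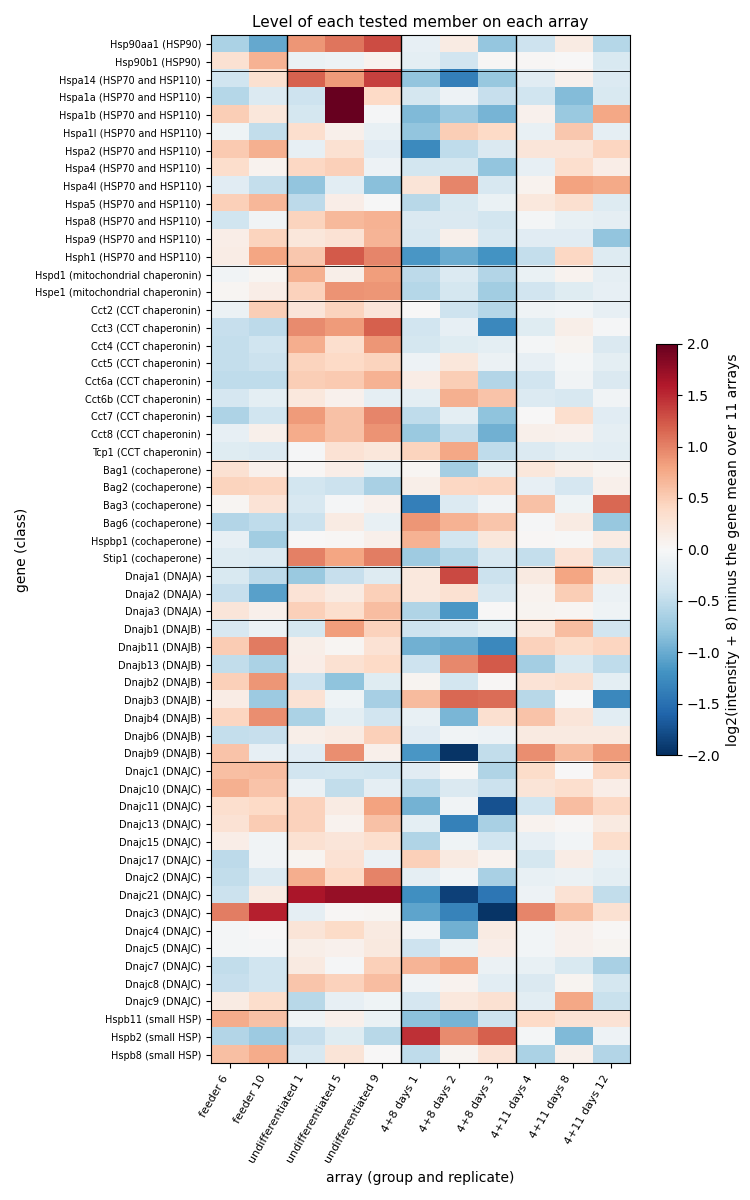
Level of each of the 58 tested member genes (rows, by class) on each of the 11 arrays (columns), as log2(intensity + 8) minus the gene's mean over the arrays. Dnajc21, Hsp90aa1, Stip1 and most CCT subunits are highest on the undifferentiated arrays, and Hspa1a and Hspa1b on undifferentiated replicate 5.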

How the data were processed

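RNA was measured on 11 Affymetrix MG_U74Av2 arrays, and groups were read from the sample titles. The authors deposited linear intensities, 1 per probe set and array, and the sources used here do not name the software that summarised the probes. Their 2% trimmed means were 200.1 on the 4+8 day arrays and 86.2 to 160 on the other 8, a ratio of up to 2.32. Because this exceeded 1.25, intensities were quantile normalised over all arrays, and 8 (near the 20th percentile) was added before taking log2. Control probe sets (66) were left out. Probe sets above 33.4, the 40th percentile, on at least 2 arrays were tested, which left 8940. limma 3.58.1 in R 4.3.3 was fitted on all 11 arrays with 4 groups, with two-sided moderated tests and Benjamini-Hochberg adjustment over the 8940. The fit had 7 residual degrees of freedom. The fit was tested on simulated data.

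Genes were named from the platform annotation, with 10833 probe sets of 1 symbol, 396 of several and 1193 unnamed here. The brightest probe set stood for a gene. Members given in full were, per class and comparison, up to 3 called higher and 3 called lower with the largest difference, plus a fixed set of well known chaperones, and other names were picked with their values in view. The members and lists were chosen with earlier results of these data known. Whether the 2 feeder arrays are separate cultures is not in the labels, and their p-values may rest on technical spread. The fluidics run, set by gaps in the recorded hybridisation times, was tried as a block on the 8 arrays that have one. The other alternatives were other scalings, pseudocounts, filters, 1 probe set per gene, and arrays left out. Precision is limited by the number of arrays.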

Additional observations from a re-analysis of the deposited data

Results flagged for a closer look

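The change from undifferentiated cells differed between 4+11 days and 4+8 days for 17 of the 79 tested member probe sets, by limma's direct comparison of both times. On the log2 scale the change at 4+11 days minus that at 4+8 days was 2.08 for Dnajc3 (102414_i_at), 2.01 for Dnajb9, 1.51 for Dnajb11, 1.41 for Dnajc21, 1.27 for Hspa4 (92571_at), 1.12 for Dnajc3 (94343_at), 1.05 for Hspb11, 1.01 for Hsph1, 1.0 for Hspa2, 0.87 for Dnajc8 (95700_r_at), 0.83 for Hspa14, 0.74 for Cct8 and 0.65 for Dnajc10. It was −1.58 for Dnajb3, −1.54 for Hspb2, −0.91 for Bag6 and −0.82 for Dnajc7. Among all tested probe sets 12.2% were called higher and 10.8% lower in this comparison. Undifferentiated arrays cancel out of this difference, and the 4+8 day arrays were scanned apart, so time and session cannot be told apart.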

How the results depend on the processing

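The counts of members called depend most on the scale. On intensities as deposited, 27 were higher and 7 lower at 4+8 days, 9 and 2 at 4+11 days, and 15 and 3 in feeder cells, all against undifferentiated cells, and 4 higher and 15 lower at 4+11 against 4+8 days. In that order the members' shares were 33.3% and 8.64%, 11.1% and 2.47%, 18.5% and 3.7%, and 4.94% and 18.5%, beside 59.2% and 4.04%, 14.9% and 3.17%, 17.1% and 3.31%, and 2.14% and 36.9% of all tested probe sets. Scaling to a common trimmed mean gave 9 higher at 4+8 days. Without a filter 1 was higher at 4+11 days, and with 1 probe set per gene 2 were. Without both arrays of the other wash protocol, 0 were higher and 1 lower at 4+11 days, 6 higher and 1 lower at 4+11 against 4+8 days, and 5 higher and 9 lower in feeder cells. Leaving out 1 array at a time gave 3 to 6 higher and 26 to 34 lower at 4+8 days, 0 to 2 and 9 to 19 at 4+11 days, 8 to 15 and 1 to 7 at 4+11 against 4+8 days, and 1 to 8 and 4 to 20 in feeder cells. A left-out feeder array leaves 1, which is then assumed to vary like the other groups. The other alternatives kept these counts within 1.5 times. The causes were not tested, save that fewer arrays or genes enter some fits.

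Some differences changed sign. As deposited, at 4+8 days Hsp90b1 was at 0.59, Hspa5 at 0.53 and Hspb11 at 0.40. At 4+11 days Hsp90b1 was at 0.33, and in feeder cells Hspa1b was at 0.30 and Tcp1 at 0.022. At 4+11 against 4+8 days Hsp90b1 was at −0.26, Hspa8 at −0.22, Hspd1 at −0.079, Hspe1 at −0.038 and Stip1 at −0.10. Without the other wash protocol Hsp90b1 at 4+11 days was at 0.13 and Hsp90aa1 at 4+11 against 4+8 days at 0.14, and blocking on the fluidics run put Hsp90b1 at 4+11 days at 0.041. With 1 array left out, Tcp1 at 4+8 days ranged over −0.19 to 0.44, Hsp90b1 at 4+11 days over −0.096 to 0.071, Hspa1b at 4+11 days over −0.98 to 0.23 (the last without undifferentiated replicate 5), Hsp90aa1 at 4+11 against 4+8 days over −0.27 to 0.20, Hsp90b1 there over −0.0081 to 0.20, and Hspa1b in feeder cells over −0.65 to 0.55 (likewise). Of 97 named differences, 39 lost their call as deposited, 5 under the trimmed mean scaling and 38 without the other wash protocol. No paired analysis was possible because the groups compared share at most 1 replicate number, so the fluidics run served as the block in its place. The number of arrays and the dimness of 11 untested probe sets limit what could be seen.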
